A study of Mus musculus with 2 samples.

Results

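Interferon regulatory factors (IRFs) and Batf2 were followed in cultured mouse retinal pigment epithelium (RPE), the pigmented layer behind the photoreceptors, with and without interferon gamma (IFNg). All probe sets annotated to Irf1, Irf2, Irf3, Irf4, Irf5, Irf7, Irf8, Irf9 or Batf2 were taken, which gave 15 probe sets for 9 of the 18193 genes on the array. The untreated group was 1 primary RPE culture, and the IFNg group was 1 primary RPE culture given IFNg at 100 U/ml for 24 h. Both cultures grew for 14 days in medium with 20% serum, stood overnight without serum before RNA extraction, and were labelled 95% cytokeratin-positive. The labels give no strain, age or genotype of the mice and do not say how many eyes went into a culture. Each culture was hybridised to 1 array, so no difference has a p-value, and "higher" and "lower" describe these 2 arrays.

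IRFs are transcription factors that share an N-terminal DNA-binding domain, which reads the interferon-stimulated response element (ISRE). IFNg signals through its receptor and the kinases JAK1 and JAK2, and primary target genes carry the gamma-activated site (GAS). IRF1 and, in myeloid cells, IRF8 and the bZIP protein BATF2 are made in this first wave and act on a second set of promoters. IRF9 is part of the complex ISGF3, with STAT2, IRF2 competes with IRF1 for its sites, and IRF3, IRF5 and IRF7 are latent factors that kinases switch on downstream of nucleic acid sensors.

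Members that could be read had either higher signals on the IFNg array or similar signals on both arrays, except that the Irf5 probe sets disagreed. Irf8, Batf2, Irf1, Irf7 and Irf2 were at least 2-fold higher, Irf9, Irf3 and the brighter probe set of Irf5 lay within 2-fold, and Irf4 was not detectable above the floor. No member gene was 2-fold lower. The floor is the pooled median signal, 20.4, under which signals were not read. By gene, 5 of the 8 members that passed the floor on either array were at least 2-fold higher, where 8.81% of all 12754 such genes were, and 0 were 2-fold lower, where 4.48% of all were. By probe set, 6 of 13 were 2-fold higher and 0 lower, against 9.65% and 4.42% of 25867 over the whole array. The median log2 ratio (IFNg minus untreated) was 1.46 over the 8 member genes and -0.12 over all genes.

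**Figure D1:**
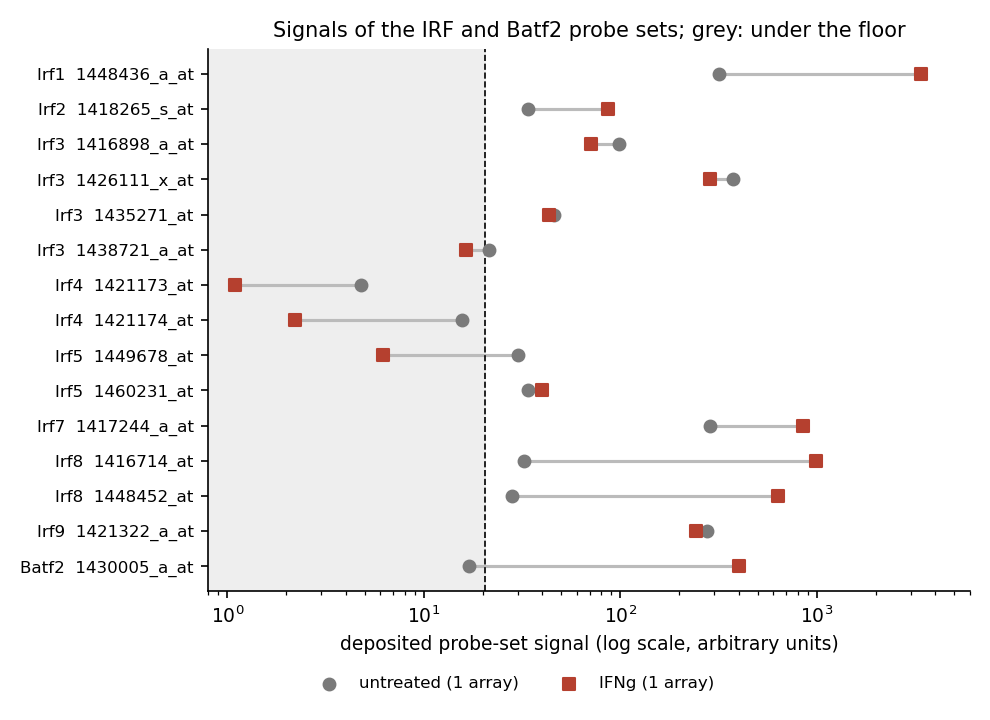
Deposited signal of each of the 15 member probe sets on the untreated array (circles) and the IFNg array (squares), on a log axis, with signals under the floor of 20.4 on grey. The Irf1, Irf8 and Batf2 squares lie far to the right of their circles, those of Irf7 and Irf2 lie to the right by a smaller distance, and both Irf4 probe sets are on grey throughout.

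Irf8 had the highest ratio of the members above the floor on both arrays. IRF8 is a factor of macrophage, dendritic cell and B cell development that also serves interferon responses. Its first probe set (1416714_at) read 32.5 untreated and 987.7 with IFNg, a 30.4-fold difference. The second (1448452_at) read 28 and 632.1, a 22.6-fold difference. Both untreated values were only a little above the floor, and both IFNg values were far above it. Both probe sets thus placed Irf8 among the most elevated transcripts. Their log2 ratios, 4.93 and 4.50, differed by 0.43, less than the SD of such a difference between 2 probe sets (0.63, from 4422 genes). The platform annotation lists the same sequence record for both Irf8 probe sets. By its brighter probe set Irf8 ranked at place 18 among the 12754 genes. With the floor raised to the upper quartile of all signals, 86.6, the log2 ratios became bounds of at least 3.51 and 2.87.

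Batf2 is a small bZIP factor that lacks a transactivation domain of its own and pairs with JUN proteins and IRFs. Its only probe set (1430005_a_at) gave 17.0 untreated, a value below the floor, and 399.5 with IFNg. The difference is therefore a bound, at least 19.6-fold (log2 ratio at least 4.29, place 29), and at least 2.21 on the log2 scale with the upper-quartile floor. Of the related BATF family genes, Batf had signals of 63.5 and 38.8 (log2 ratio -0.71), and Batf3 was under the floor on both arrays at 5.5 and 7.6. None of the JUN partners passed 2-fold either: Jun had a log2 ratio of 0.68, Junb 0.16 and Jund -0.32.

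Irf1 encodes the activator first named for its binding to the interferon beta promoter and is a primary target gene of IFNg. Its probe set (1448436_a_at) read 319.1 untreated and 3391.1 with IFNg, a 10.6-fold difference (log2 ratio 3.41, place 47). Unlike Irf8 and Batf2, Irf1 was well above the floor without IFNg, so its ratio barely depends on how dim signals are read. Over the 7 alternative scalings and floors it ran from 3.33 to 3.56.

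Irf2, the antagonist of IRF1 at shared sites and itself able to activate some genes, was higher by a smaller factor. Its signals of 33.9 and 86.3 differed 2.55-fold (log2 ratio 1.35, place 567). The probe set (1418265_s_at) has an ID that marks sequence shared with other transcripts. With the upper-quartile floor, just above the IFNg signal, Irf2 was at the floor on both arrays, so its call rests on dim signals.

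GAS letters were found in the promoter windows of Irf1, Irf2 and Irf8 and in none of the windows of Irf3, Irf4, Irf5, Irf7 and Irf9. RefSeq promoter windows of 300 bases (250 before and 50 after a start site, build GRCm38.p6) were matched for these 8 genes, 11 windows in all, and both strands were searched for GAS (TTCNNNGAA), an ISRE core (GAAA, then 2 bases of any kind, then GAAA), a composite ETS-IRF element (GGAA, then 2 bases of any kind, then GAAA), AP-1 (TGANTCA) and the kappa B motif. Of all 32851 windows in the table, 8.30% held GAS, 3.44% the ISRE core, 2.72% the composite element, 7.81% AP-1 and 8.46% kappa B. The 250 bases before the start site are shown for the 3 genes with GAS letters, since these were all 2-fold higher, with every match in capitals. They lie at chr11:53769764-53770013 for Irf1, chr8:120736108-120736357 for Irf8 and chr8:46739495-46739744 for Irf2, each on the plus strand.
Irf1: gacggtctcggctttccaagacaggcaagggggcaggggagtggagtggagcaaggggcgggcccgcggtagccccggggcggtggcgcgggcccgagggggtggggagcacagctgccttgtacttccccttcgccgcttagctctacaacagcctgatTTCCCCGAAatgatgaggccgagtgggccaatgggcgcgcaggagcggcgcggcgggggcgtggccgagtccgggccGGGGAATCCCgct
Irf8: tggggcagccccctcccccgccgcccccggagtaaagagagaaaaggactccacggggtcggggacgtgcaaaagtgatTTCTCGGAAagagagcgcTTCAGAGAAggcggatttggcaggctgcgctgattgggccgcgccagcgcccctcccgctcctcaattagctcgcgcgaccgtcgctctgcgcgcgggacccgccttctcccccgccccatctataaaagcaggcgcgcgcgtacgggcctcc
Irf2: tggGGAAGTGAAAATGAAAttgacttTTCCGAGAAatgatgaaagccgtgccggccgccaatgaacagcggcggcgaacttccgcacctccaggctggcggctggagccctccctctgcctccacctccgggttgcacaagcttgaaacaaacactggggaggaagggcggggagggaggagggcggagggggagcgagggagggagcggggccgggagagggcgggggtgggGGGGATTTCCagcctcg

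In the Irf1 sequence the capitals mark GAS letters, TTCCCCGAA, starting 90 bases before the start site, and a kappa B match, GGGGAATCCC, starting 13 bases before it. In Irf8 they mark 2 GAS matches, TTCTCGGAA starting 171 bases and TTCAGAGAA starting 153 bases before the start site. Irf2 carries the most kinds: a composite ETS-IRF match (GGAAGTGAAA) that overlaps an ISRE core (GAAAATGAAA), then GAS letters, TTCCGAGAA, starting 224 bases before the start site, and a kappa B match (GGGGATTTCC) starting 17 bases before it. The second start sites that RefSeq gives for Irf1 and Irf8 had no match to any of the motifs. A match is a description of letters and not evidence of binding.

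**Figure D2:**
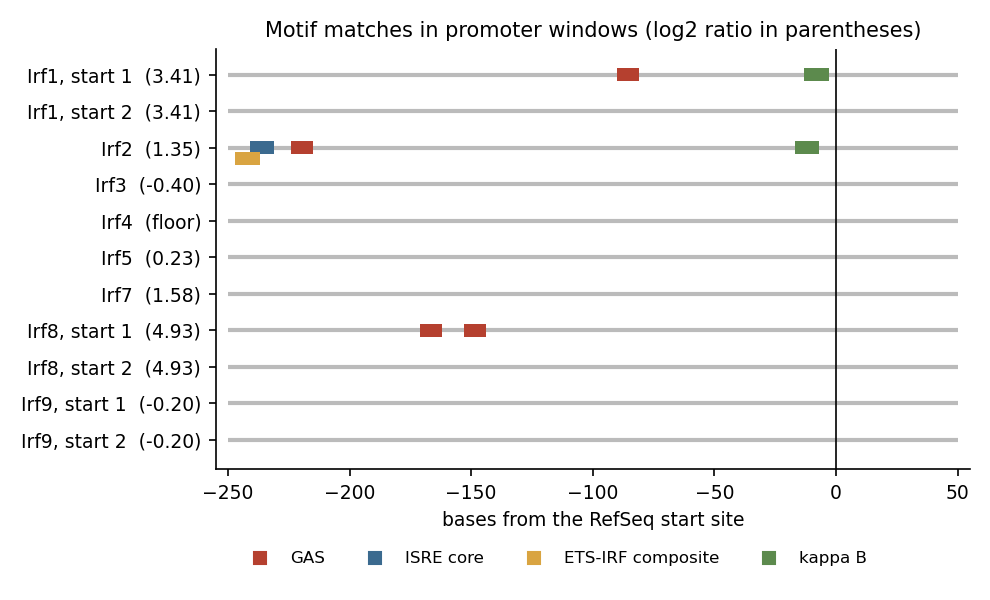
Motif matches (coloured boxes) in the RefSeq promoter windows of 8 member genes, by bases from the start site, with each gene's log2 ratio in parentheses. GAS boxes appear in the first windows of Irf1 and Irf8 and in that of Irf2, and the other 8 windows hold no box.

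Irf7, a latent factor that amplifies type I interferon production and is itself an interferon-stimulated gene, had signals of 286.3 and 853.3. The difference was 2.98-fold (log2 ratio 1.58, place 341), and the log2 ratio ran from 1.5 to 1.70 over the alternative scalings and floors. Its window, although the gene was higher, held none of the motifs searched. The difference in log2 ratio between Irf7 and Irf2, 0.23, is smaller than the spread expected between 2 probe sets (0.63), so these neighbours in the order cannot be ranked.

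Irf9, the DNA-binding subunit of ISGF3, was not higher on the IFNg array. Its signals were 276.9 on the untreated array and 241.3 with IFNg, well above the floor on both (log2 ratio -0.20, from -0.28 to -0.10 over the alternatives). Its partner Stat2 was 2.87-fold higher, at 134.4 and 385.9, and a second Stat2 probe set had a log2 ratio of 1.31. Of 24 genes listed as ISGF3 targets, 22 were at least 2-fold higher, with a median log2 ratio of 2.17, and Ifi27 was 2.13-fold lower. Over all genes, 8.81% were at least 2-fold higher and 4.48% lower. The leading higher targets were the antiviral genes Ifit2 (43.2-fold), Rsad2 (28.4-fold), Herc6 (18.3-fold) and Ifit1 (14.9-fold), and Irf7 is itself in this list. Dimmer probe sets had smaller log2 ratios for Rsad2 (3.75 and 3.77) and Herc6 (2.18). Further Herc6 probe sets gave bounds of at least 2.86 and 2.97.

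Irf3, the constitutively made factor that triggers interferon beta transcription, had a slightly lower signal with IFNg in all 4 of its probe sets, and none was called 2-fold lower. The brightest (1426111_x_at) had signals of 376.0 and 285.6, and the next (1416898_a_at) had 97.9 and 71.0. The remaining pair was dim, with 46.2 and 43.5 for 1435271_at and 21.4 and 16.4 for 1438721_a_at. The log2 ratios were -0.40, -0.46, -0.09 and, for the dimmest, which was under the floor with IFNg, a bound of at most -0.07. Against the median of all genes, -0.12, these are small differences, within the spread between probe sets.

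Irf5, which acts downstream of Toll-like receptors in myeloid cells, was dim and its probe sets disagreed. One (1460231_at) had signals of 34.0 and 40.0 (log2 ratio 0.23). The other (1449678_at) had 30.1 and 6.2, under the floor with IFNg, so that it was at least 1.48-fold lower, and with a floor at the lower quartile, 5.80, its log2 ratio was -2.28. No direction for Irf5 can be read from these values. Irf4, a factor of lymphocytes, dendritic cells and pigment cells, was under the floor by both probe sets, with 4.8 and 1.1 for 1421173_at and 15.7 and 2.2 for 1421174_at.

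**Figure D3:**
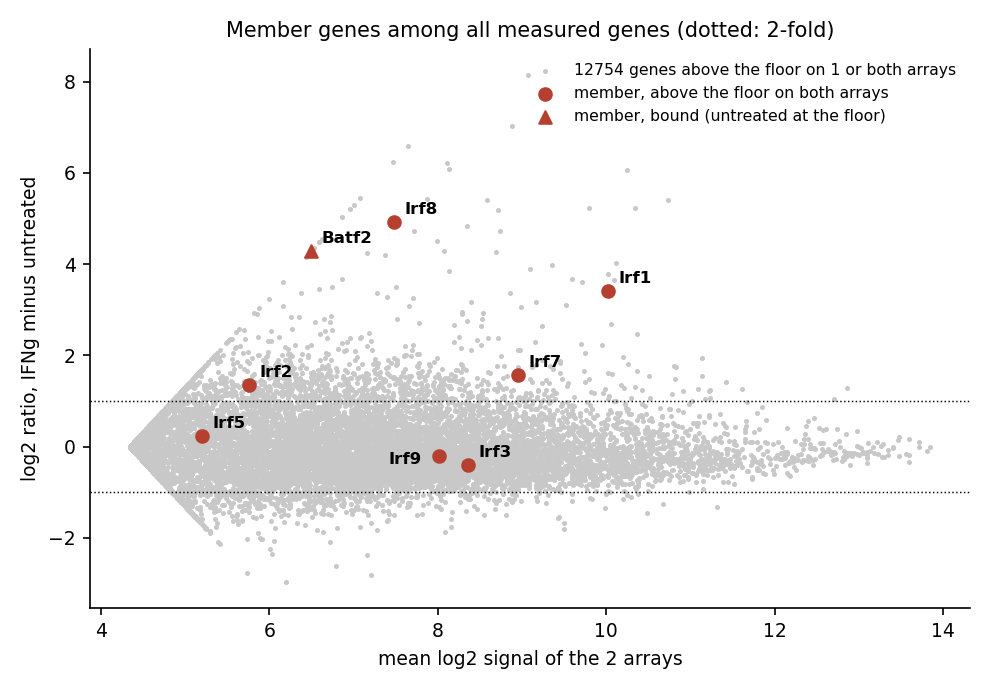
Log2 ratio (IFNg minus untreated) against mean log2 signal for 12754 genes (grey) and the 8 measured members (red, 1 probe set per gene, triangle for a bound); dotted lines mark 2-fold. Irf8, Batf2 and Irf1 lie at 4.93, at least 4.29 and 3.41, at places 18, 29 and 47 from the top, while Irf3, Irf5 and Irf9 lie inside the main cloud.

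Ordered by the log2 ratio of their brightest probe sets, the members ran Irf8, Batf2, Irf1, Irf7, Irf2, Irf5, Irf9 and Irf3. The gap from Irf1 to Irf7 (1.83) was larger than the spread of 0.63 between 2 probe sets. That spread is technical and holds no difference between cultures. The gap from Irf2 to Irf5 (1.11) was larger as well, but on dim signals. The gaps from Irf5 to Irf9 (0.43) and from Irf9 to Irf3 (0.20) were smaller than this spread. The other Irf5 probe set had a bound of at most -0.56, so the place of Irf5 is not settled. The place of Batf2 is open upwards, since its value is a bound, so it cannot be ranked against Irf8. At 3-fold, Irf1, Irf8 and Batf2 passed, where 2.63% of genes did.

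Upstream of the IRFs, 11 genes for interferon receptors and JAK-STAT components had a median log2 ratio of 0.29. Of these, 4 were at least 2-fold higher and 0 lower, against 8.81% and 4.48% of all genes. The higher ones were the feedback inhibitor Socs1 (5.79-fold), the kinases Jak2 (5.31-fold) and Jak1 (2.81-fold) and Stat2. A dim Jak1 probe set had a log2 ratio of -0.06. The IFNg receptor genes were within 2-fold, at 163.5 and 185.3 for Ifngr1 and 385.0 and 202.8 for Ifngr2.

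The 17 measured sensors, adaptors and kinases that switch on IRF3, IRF5 and IRF7 had a median log2 ratio of 0.21. Of these, 4 were at least 2-fold higher and 0 lower, against 8.81% and 4.48% of all genes. The higher ones were the RNA sensors Ifih1 (9.02-fold) and Tlr3 (6.65-fold), the adaptor Sting1 (3.36-fold) and the RIG-I-like receptor Dhx58 (2.15-fold), which had a dim probe set at a bound of -0.31. The kinases Tbk1 (log2 ratio 0.87) and Ikbke (-0.08) did not pass 2-fold by their brightest probe sets, nor did the adaptors Mavs (-0.79), Ticam1 (-0.84) and Myd88 (0.21). A dimmer probe set of Tbk1 was past 2-fold higher (log2 ratio 1.89) and one of Mavs past 2-fold lower (-1.77). Genes for interferons themselves were near or under the floor: 8 of 10 were under it on both arrays, Ifnb1 had 17.2 and 21.2, and Ifnz had 38.3 and 37.5.

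Of 21 partners and co-regulators of IRF proteins, 5 were 2-fold higher and 0 were lower, with a median of -0.12, equal to that of all genes. They were Nmi (8.48-fold) and Ifi35 (2.37-fold), whose products bind each other, then Stat2, the class II transactivator Ciita (at least 2.36-fold, with its other probe sets under the floor) and Spi1. Spi1 encodes PU.1, the myeloid partner of IRF8 on composite elements, and its signals were 5.0 and 43.3 (at least 2.12-fold). The IRF2-binding corepressor genes were all somewhat lower and within 2-fold by their brightest probe sets, with log2 ratios of -0.60 for Irf2bp1, -0.32 for Irf2bp2 and -0.29 for Irf2bpl. A dimmer Irf2bpl probe set was just past 2-fold lower, at -1.04.

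Genes listed as IRF1 targets were higher in 17 of 21 cases and lower in 0, against 8.81% and 4.48% of all genes. The median log2 ratio of these targets was 1.80. The GTPase Gbp2 (42.8-fold), the chemokine Cxcl10 (37.8-fold), the immunoproteasome subunit Psmb9 (36.6-fold) and Cd274, the gene for PD-L1 (at least 20.6-fold), led, while the cell-cycle inhibitor Cdkn1a had a log2 ratio of -0.62 and Ifnb1, close to the floor, only a bound of at least 0.06. Beside the same shares of all genes, 12 of 19 measured IRF8 or BATF2 targets listed for myeloid cells were higher and 0 lower (median 1.22). Cxcl9 (285-fold), Mpeg1 (at least 43.5-fold), Ccl5 (19.6-fold) and Casp4 (11.3-fold) led, but Il12b and Il12a, the IL-12 genes that IRF8 serves in macrophages, were under the floor on both arrays, with 11.3 and 15.1 and with 16.9 on each. These target lists overlap, so they do not separate 1 factor from another.

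**Figure D4:**
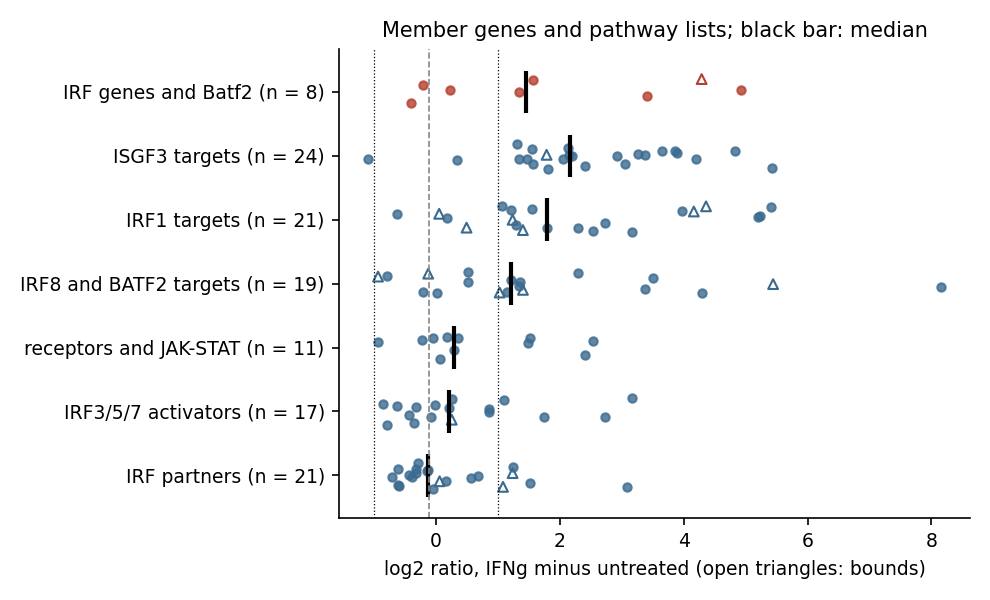
Log2 ratios (IFNg minus untreated) of the 8 measured members (red) and of the genes of 6 lists (blue; 1 point per gene, open triangles for bounds, black bar for the median, dashed line for the median of all genes at -0.12, dotted lines for 2-fold). The medians of the target lists are 2.17, 1.80 and 1.22 beside a member median of 1.46, and those of the upstream and partner lists lie between -0.12 and 0.29.

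Irf8, Irf4 and Irf5 are abundant in blood-derived cells, so markers of such cells were read beside them. Of 22 macrophage, microglia and dendritic cell markers above the floor, Spi1 was 2-fold higher and 3 lower, against 8.81% and 4.48% of all genes. The lower ones were Csf1r (2.62-fold, its other probe sets at -0.56 and -0.28), Laptm5 (a bound just past 2-fold) and Fcer1g (at least 2.25-fold). Laptm5 probe sets above the floor on both arrays were within 2-fold, at log2 ratios of -0.19 and -0.55. Summed over the 28 markers on the array, the signal was 3520 on the untreated array and 2852 with IFNg. These sums add probe sets that are not comparable as levels, so they do not measure the amount of such cells. Itgam, Aif1, Cx3cr1, Siglech, P2ry12 and Cd163 were under the floor on both arrays, and Ptprc, the gene for CD45, had 20.8 and 7.0. Lyz1, Lyz2 and Tmem119 made up most of both sums. By sign alone 8 of the 22 had a log2 ratio above 0 and 14 below. Among the higher ones were the complement genes C1qa (26.2 and 50.8), C1qb (44.5 and 66.4, with dimmer probe sets at log2 ratios of 1.14 and -0.17) and C1qc (25 and 35.4), as well as Clec7a (17.6 and 40.2), Fcgr1 (11.1 and 28.5) and Mrc1 (9.3 and 26.8), the last 3 under the floor without IFNg. Mpeg1, named above among the myeloid targets and not in this marker list, had 14.9 and 888.4 (at least 43.5-fold higher). The part of macrophages, microglia or dendritic cells in the Irf8 difference was not tested. Only 2 of 10 B cell markers and 3 of 11 T and NK cell markers passed the floor, with 0 higher and, of the B cell markers, Ighm lower by 1 probe set, while its others were under the floor or close to it.

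The labelled cell type was checked by markers as well. Of 25 RPE markers 20 were above the floor on 1 or both arrays, among them Otx2 (410.9 and 388.5), Krt8 (453.5 and 459.9) and Tyr (986.1 and 605.7). Slc16a8, Rrh, Trpm1, Lrat and Pmel passed it on 1 array only. Rpe65, Best1, Rgr, Dct and Stra6 were under it on both. With IFNg, 5 of the 20 were at least 2-fold lower and 0 higher, against 4.48% and 8.81% of all genes. The lower ones were Ttr (log2 ratio -1.60), Cdh3 (-1.37), Tyrp1 (-1.29), Rdh5 (-1.21) and Rlbp1 (-1.06). Signals were dim for Ttr (89.4 and 29.4), Rlbp1 (73.2 and 35.1) and Tyrp1 (53.1 and 21.7, near the floor with IFNg). The other Tyrp1 probe sets disagreed, with bounds of at most -1.45 and at least 0.33. All 14 fibroblast and mesenchymal markers were above the floor and within 2-fold by their brightest probe sets. A dimmer Acta2 probe set was past 2-fold lower (log2 ratio -1.41). In bulk RNA, fewer cells of a type and less RNA per cell cannot be told apart, and which cells of these cultures carried the Irf8 or Batf2 transcripts was not tested. Endothelial markers (7 above the floor) and melanocyte and Schwann cell markers (5) had none called past 2-fold, and of 3 photoreceptor and neural retina markers Rom1 was lower.

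**Figure D5:**
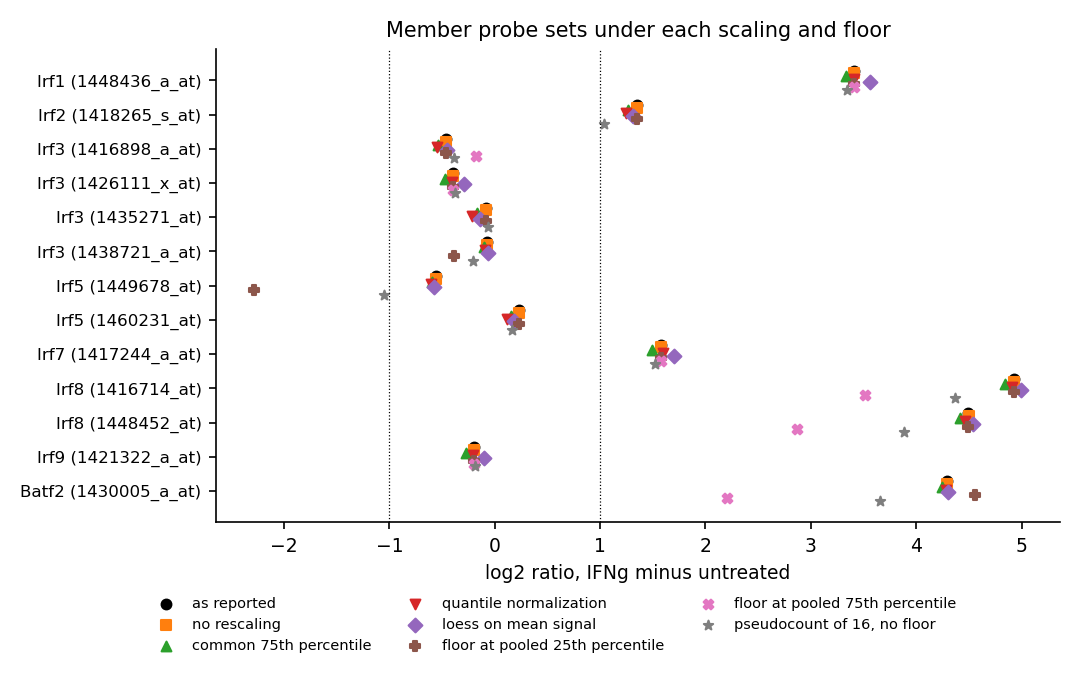
Log2 ratio of each member probe set above the floor under the reported processing (black circles) and 7 other scalings and floors (coloured symbols); dotted lines mark 2-fold. The 4 alternative scalings move the symbols little, while the upper-quartile floor and the pseudocount of 16 pull the dim Irf8 and Batf2 values down, the lowest being 2.21 for Batf2.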

How the data were processed

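RNA of each culture was copied into biotin-labelled cRNA for 1 Affymetrix mouse array, per the labels' protocols. The authors deposited linear signal intensity values for 45101 probe sets, and the values show that both arrays had been brought to a mean of 100 (2% trimmed at each end). How probe sets were summarised is not given in the sources used here, and neither is any detection call. After removal of 64 control probe sets, the arrays were scaled to 1 trimmed mean, signals below 20.4 (the median of both arrays pooled) were raised to that floor, and values were put on the log2 scale. About 49.7% and 50.4% of probe sets lay above this floor. Where 1 array was at the floor the ratio is a bound, and where both were none is given. Genes were named from the platform annotation by probe sets with 1 gene (34945), and the brightest such probe set (mean log2 signal) stood for its gene, which gave 18193 genes. Of 278 list symbols, 242 matched directly, 4 by a synonym and 32 not at all. Signals of different probe sets are not comparable as levels.

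With 1 array per group no test was made. The members, the 7 pathway and 8 cell type lists and the comparisons were chosen with earlier results of these data known. From each pathway list the text names up to 4 genes with the largest difference, any gene 2-fold the other way, and others to show values within 2-fold. A planned search for the genes nearest to each member by signal on both arrays is not reported, because it sets levels of different probe sets against each other. Motif windows came from RefSeq (GRCm38.p6). The procedure was tested on simulated arrays with known changes in probe sets well above the floor. That test does not cover dim signals or bounds. Python 3.11.15, numpy 2.4.6, pandas 2.3.3, statsmodels 0.14.6 and matplotlib 3.10.9 were used. The alternatives were 4 scalings, 2 floors, a pseudocount of 16, 2 thresholds, and other probe-set choices.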

Additional observations from a re-analysis of the deposited data

How the results depend on the processing

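The calls of Irf1, Irf7, Irf8 and Batf2 held under all 4 alternative scalings, both floors and the pseudocount, and that of Irf2 under all of these but the floor at the pooled 75th percentile. Among the scalings, leaving out the rescaling could change almost nothing, since the reported scale factors were 1.00008 (untreated) and 0.999924 (IFNg). Counts of member genes 2-fold higher fell to 3 at a 3-fold threshold (Irf1, Irf8 and Batf2). They fell to 1 (Irf8) without probe sets whose IDs end in _s_at, _x_at or _a_at, which leaves 3 measured members. Leaving out only _s_at and _x_at, an alternative chosen after seeing the data, kept 4 and lost Irf2. With the floor at the pooled 25th percentile, 1 member gene (Irf4) and 2 member probe sets were 2-fold lower, on signals that are otherwise unread, and with a pseudocount of 16 it was 1 probe set (Irf5, log2 ratio -1.05). That floor raised the median of the IRF1 target list to 2.53, and averaging the probe sets of a gene lowered it to 1.22. At 3-fold the higher genes numbered 2 in the receptor and JAK-STAT list, 1 among partners, 11 among IRF1 targets and 6 among IRF8 and BATF2 targets, and with the floor at the pooled 75th percentile the partners had 3. The changes at 3-fold follow from the threshold, and for the others the cause was not tested. No paired analysis was possible because each group has 1 array. Signal over background limits Irf2, Irf4, Irf5 and the untreated values of Irf8 and Batf2.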

Other observations

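The same motif search was set beside the calls of all genes with a promoter window, a description chosen after the values were seen. Of 43 genes at least 8-fold higher with IFNg, 8 (18.6%) had GAS letters in a window and 18 (41.9%) had the ISRE core. Among 8930 genes within 2-fold the shares were 8.01% and 3.09%. Irf1 and Irf8 were among the 8 with GAS letters. Over all 886 genes at least 2-fold higher, the shares were 9.14% for GAS and 8.58% for the ISRE core, and among 445 at least 2-fold lower they were 6.97% and 2.92%. Of the 8 members with a window, Irf2 alone held the ISRE core.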
